A study of Mus musculus with 14 samples.

Results

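The genes described here build the thin filament and the Z-disc of the heart muscle sarcomere: Actc1, Acta1, Tnnc1, Tnni3, Tnnt2, Tpm1, Actn2, Tcap, Ldb3 and Lmod2. They were taken from the deposited count table by symbol, 10 of its 24054 genes, and all 10 passed the filter on low counts, which 13588 genes passed. The table holds 14 libraries of messenger RNA from the left ventricle of mice of the strain spelled C56Bl6 in the labels. The 5 HFpEF-FoxO1-sh libraries and the 4 HFpEF-scr libraries came from mice fed for 6 weeks on high fat together with L-NAME, which inhibits nitric oxide synthases, a regime used to model heart failure with preserved ejection fraction (HFpEF). For 4 weeks these mice also carried an adeno-associated virus (AAV), with a short hairpin RNA against Foxo1 in HFpEF-FoxO1-sh and a scrambled hairpin in HFpEF-scr. For the 5 controls the labels give a standard diet of 10 weeks, with no AAV named, so diet, L-NAME and AAV cannot be told apart in a comparison with them. The labels used here name neither the promoter and target cell of the virus nor the age and sex of the mice. They do not say that the replicates are separate animals either, and a p therefore speaks of the scatter between libraries.

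In a heart muscle cell, each thin filament is a double strand of alpha-actin wrapped by tropomyosin, with troponin complexes along it that make contraction depend on calcium. Its barbed end is anchored in the Z-disc, where alpha-actinin ties filaments of neighbouring sarcomeres together. Telethonin caps the end of titin there, and the PDZ-LIM protein of Ldb3 binds alpha-actinin. Actc1 encodes the cardiac alpha-actin and Acta1 the skeletal one, which rodent hearts make before and around birth and again in hypertrophy.

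Libraries held between 13.17 and 21.25 expected counts in units of 1000000, the largest being control 1. Levels are counts per 1000000 (CPM) after scaling of the libraries, and fold changes are log2 values ± SE with the group named first on top, from edgeR's quasi-likelihood test. Calls are made at an adjusted p (Benjamini-Hochberg, all tested genes) below 0.05. Of other muscle, 18 markers of skeletal muscle summed to 53.7 to 90.7 CPM over all libraries, with Myh4, a fast myosin, at most 0.346 CPM, and none of the 7 tested was called in any comparison. The 12 markers of atrium summed to 587 to 694 CPM in HFpEF-FoxO1-sh, 630.3 to 831 in HFpEF-scr and 733 to 889 in control. Among them Sln reached at most 0.0709 CPM, Myl7 1.00 and Myl4 2.75, while Nppa, the atrial natriuretic peptide, ran from 40.3 to 186 CPM. Of the 9 atrial markers tested, Nppa and Angpt1 were called lower in HFpEF-FoxO1-sh and Angpt1 in HFpEF-scr against control. Foxo1, the target of the hairpin, averaged 42.4 ± 2.56 CPM in HFpEF-FoxO1-sh (SD, n = 5), 43.5 ± 3.74 in HFpEF-scr (SD, n = 4) and 44.0 ± 1.93 in control (SD, n = 5), and was not called in any of the 3 comparisons. HFpEF-scr 1 stood apart from the others by its summed red cell genes, 6081 CPM, and by Myh7, 2987 CPM, so values without it are given where they change a result. Immediate early genes such as Fos and Egr1, which stimuli induce within minutes, differed as well: 24 of the 24 tested lay above 0 in HFpEF-scr against control (median 0.75, 5 called higher), and in HFpEF-FoxO1-sh against HFpEF-scr the median was -0.74 with 4 called lower. Their mean log2 CPM, the immediate early score, ran from 3.59 to 5.67 in HFpEF-FoxO1-sh, 4.70 to 6.69 in HFpEF-scr and 3.45 to 6.10 in control. Libraries also differed in genes of the circadian clock, summarised here as a clock index, the mean log2 CPM of 5 clock output genes such as Dbp less that of 3 genes of the positive arm such as Arntl.

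HFpEF-scr against control asks how the regime with a scrambled hairpin differed from a standard diet. Tnnc1 and Ldb3 fell, and no gene of the set rose. The called genes were 2 of the 10, beside 7.37% of all genes tested, 3.66% being called higher and 3.70% lower. Fold changes lay below 0 for 8 of the 10, with a median of -0.13 beside 0.002 for all genes tested. Libraries of the groups did not overlap for 4 of the genes, Tnnc1, Ldb3, Tnnt2 and Actn2, all lower, beside 8.93% of all genes in either direction and 4.64% in the lower one.

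The effect of the Foxo1 hairpin within the regime is addressed by HFpEF-FoxO1-sh against HFpEF-scr. None of the 10 was called by edgeR, beside 3.58% of all genes, of which 1.32% higher and 2.26% lower, while 3 had an unadjusted p under 0.05, Acta1, Tcap and Tnni3. DESeq2 called 1 of them, Tnni3, as higher. Fold changes lay above 0 for 8 of the 10, with a median of 0.06 beside 0.004, and libraries overlapped for each gene of the set, beside 8.34% of all genes that did not. Without HFpEF-scr 1, Tpm1 became -0.013 and Ldb3 -0.0, while the others of the 8 stayed above 0, Lmod2 at 0.013. This comparison shares its HFpEF-scr libraries with the one before.

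HFpEF-FoxO1-sh against control asks where hearts with the regime and the Foxo1 hairpin differed from standard-diet hearts. Tnnc1 and Ldb3 fell here as well, 2 of 10, beside 13.0% of all genes called, 6.68% higher and 6.28% lower. These were also the 2 genes without overlap, beside 12.1% of all genes in either direction and 5.53% in the lower one. The median of the set was -0.06, beside -0.003. The control libraries are the same ones as in HFpEF-scr against control.

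**Figure D1:**
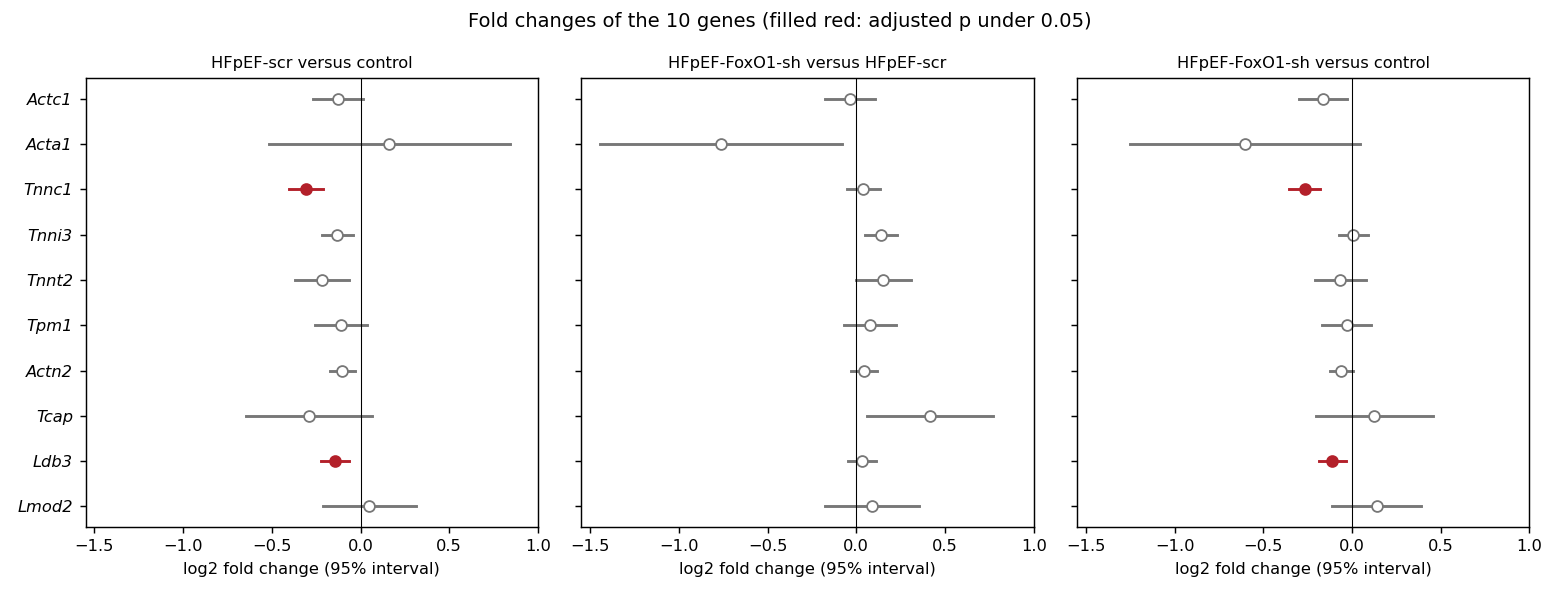
Log2 fold changes of the 10 genes (points) with 95% intervals (lines) in the 3 comparisons, the group named first on top, filled red where the adjusted p was under 0.05. Tnnc1 and Ldb3 are filled in both comparisons with control, and the interval of Acta1 is the widest in each panel.

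Relative to length, the set spanned a wide range of levels, given here in CPM per kilobase of the principal transcript. Over the 14 libraries the mean level per kilobase was 7025 for Tnnt2, 5280 for Tpm1, 5181 for Actc1 and 5147 for Tnni3. Tnnc1 followed at 2678 and Tcap at 2058, then Actn2 at 870.4, Lmod2 at 520.2, Ldb3 at 254.0 and Acta1 at 146.8. The ranges of the neighbours Tpm1, Actc1 and Tnni3 overlapped in each group. Within libraries, Actc1 was below both Tpm1 and Tnni3 in 5 of 5 HFpEF-FoxO1-sh libraries, while it was above Tnni3 in 3 of 4 HFpEF-scr and 4 of 5 control libraries and below Tpm1 in 2 of 4 and 2 of 5. Tnnt2 and Tpm1 overlapped in HFpEF-scr, although Tnnt2 was the higher in each of the 14 libraries. Ranges also overlapped for Tnnc1 and Tcap in HFpEF-FoxO1-sh and for Ldb3 and Acta1 in HFpEF-scr, and the other neighbours did not overlap in any group. The genes also differed in how steady they were: the highest library was 1.14 times the lowest for Actn2 and 1.19 times for Tnni3, but 2.23 times for Tcap and 6.10 times for Acta1. Together the 10 genes took 3.94% ± 0.136 of all counts in HFpEF-FoxO1-sh (SD, n = 5), 3.77% ± 0.299 in HFpEF-scr (SD, n = 4) and 4.19% ± 0.0437 in control (SD, n = 5). The shares ran from 3.78% to 4.10% in HFpEF-FoxO1-sh and from 3.35% to 4.04% in HFpEF-scr, below the 4.15% to 4.24% of the controls without overlap, and the lowest was that of HFpEF-scr 1. These shares are of counts before scaling. After scaling, the 10 genes summed to 38060 to 41760 CPM in HFpEF-FoxO1-sh, 33100 to 40960 in HFpEF-scr and 40520 to 42920 in control. Both HFpEF groups then overlapped with control.

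**Figure D2:**
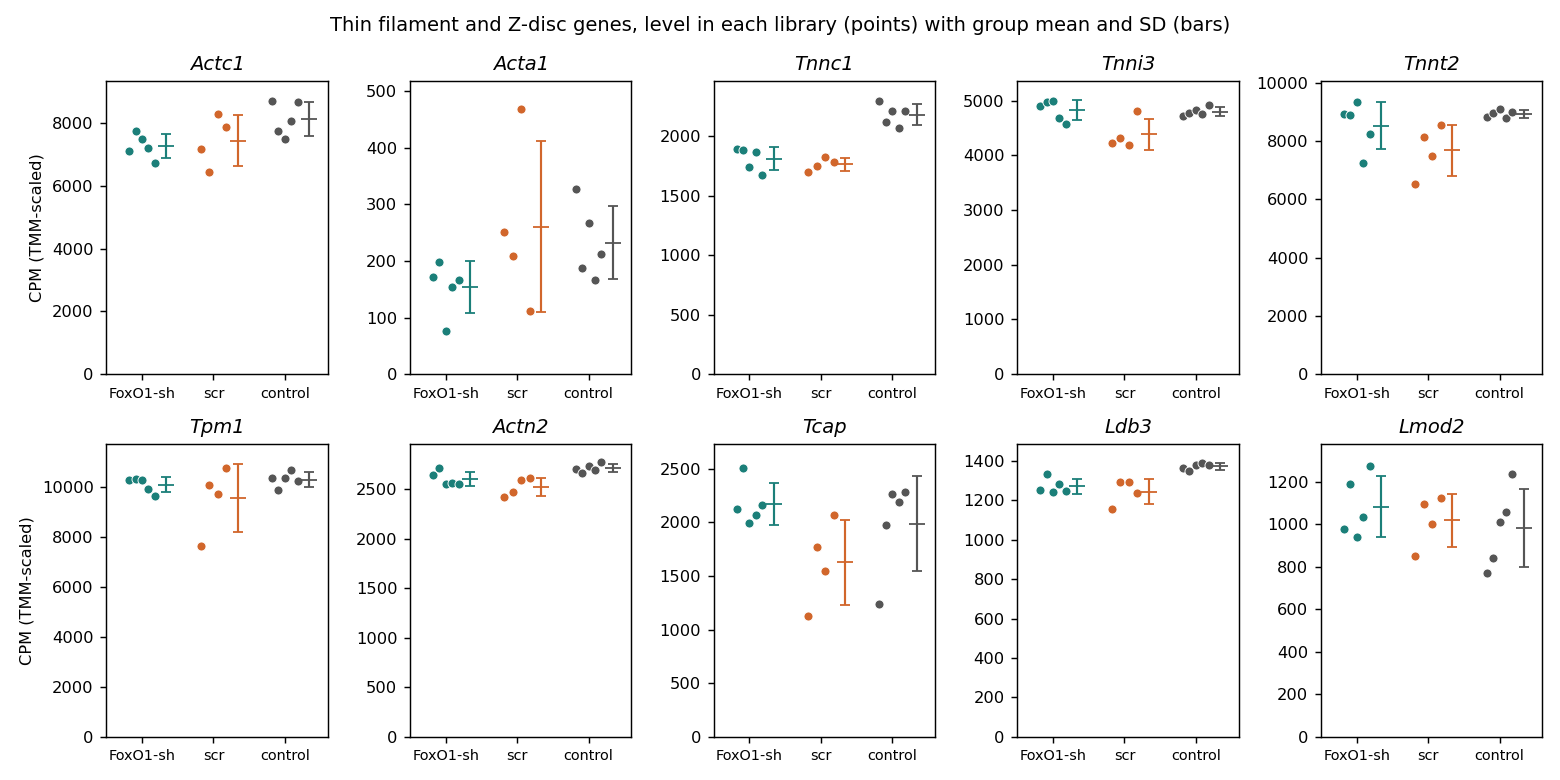
Level of each gene in CPM (vertical axis, from 0) in every library (points) of HFpEF-FoxO1-sh (FoxO1-sh), HFpEF-scr (scr) and control, with the mean and SD of each group (bars). Tnnc1 and Ldb3 sit lower in both HFpEF groups than in each control library, while Acta1 and Tcap scatter widely within groups.

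Actc1, on chromosome 2 at 114047282 to 114053548 of GRCm38, minus strand, encodes the actin that makes up most of the cardiac thin filament. It had 7124, 7752, 7514, 7202 and 6748 CPM in HFpEF-FoxO1-sh 1 to 5, 7183, 6435, 8293 and 7899 in HFpEF-scr 1 to 4, and 8707, 7756, 7507, 8061 and 8668 in control 1 to 5. The groups overlapped. The HFpEF-FoxO1-sh libraries at 7124, 7202 and 6748 CPM lay below each control library, the lowest of which had 7507 CPM. Those at 7752 and 7514 CPM lay in the lower part of the control range. The log2 fold changes were -0.13 ± 0.07 for HFpEF-scr against control (adjusted p = 0.264, edgeR), -0.04 ± 0.07 for HFpEF-FoxO1-sh against HFpEF-scr (adjusted p = 0.817) and -0.16 ± 0.06 for HFpEF-FoxO1-sh against control (adjusted p = 0.102). A fit of the last 2 groups alone called Actc1 lower (adjusted p = 0.0317).

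Acta1, on chromosome 8 at 123891769 to 123894751, minus strand, encodes the skeletal alpha-actin and was the least abundant gene of the set per kilobase. It had 171, 198, 76.85, 155 and 167 CPM in HFpEF-FoxO1-sh 1 to 5, 252, 209, 469 and 112 in HFpEF-scr 1 to 4, and 328, 188, 267, 167 and 213 in control 1 to 5. HFpEF-scr held both a library above every control and one below every control, so its range covers most of the others. HFpEF-FoxO1-sh averaged 153.5 ± 45.7 CPM (SD, n = 5), HFpEF-scr 260.4 ± 151.0 (SD, n = 4) and control 232.5 ± 65.0 (SD, n = 5). Between the HFpEF groups, FoxO1-sh over scr, the log2 fold change came to -0.76 ± 0.32 (adjusted p = 0.193, edgeR; 95% interval -63.3% to -5.49%), and it was -0.31 without HFpEF-scr 3. HFpEF-scr against control gave 0.16 ± 0.32 (adjusted p = 0.810), and -0.29 without HFpEF-scr 3, so the sign rests on that library. The value was -0.60 ± 0.31 for HFpEF-FoxO1-sh against control (adjusted p = 0.222). Acta1 was highest in HFpEF-scr 3, where Myh7, the slow beta-myosin that also belongs to the foetal programme, had 919 CPM, and not in HFpEF-scr 1, where Myh7 was highest. As a share of the counts of both alpha-actins, a ratio within each library, Acta1 took 2.07% ± 0.611 in HFpEF-FoxO1-sh (SD, n = 5), 3.32% ± 1.62 in HFpEF-scr (SD, n = 4) and 2.77% ± 0.712 in control (SD, n = 5), with overlap among the groups.

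Because the counts were divided among genes by an estimate, how far the 2 alpha-actins can be told apart bears on these values. In GENCODE vM21 their coding sequences are 1131 bases long and differ at 155 of them, an identity of 86.3%, and the longest identical run is 29 bases. No stretch of 50 bases of the Acta1 transcript occurs in Actc1, while 2.22% of its stretches of that length occur in other genes, mostly Actb and the model gene Gm47692. The first 120 bases of both coding sequences are shown, in the sense of the transcript, with the 19 bases at which they differ in capitals.
Acta1: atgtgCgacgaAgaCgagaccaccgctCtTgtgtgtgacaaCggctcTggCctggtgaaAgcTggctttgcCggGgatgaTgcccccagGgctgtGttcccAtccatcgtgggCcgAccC
Actc1: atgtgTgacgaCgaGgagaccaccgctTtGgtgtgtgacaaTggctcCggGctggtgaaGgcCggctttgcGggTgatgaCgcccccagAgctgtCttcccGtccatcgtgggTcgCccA

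**Figure D3:**
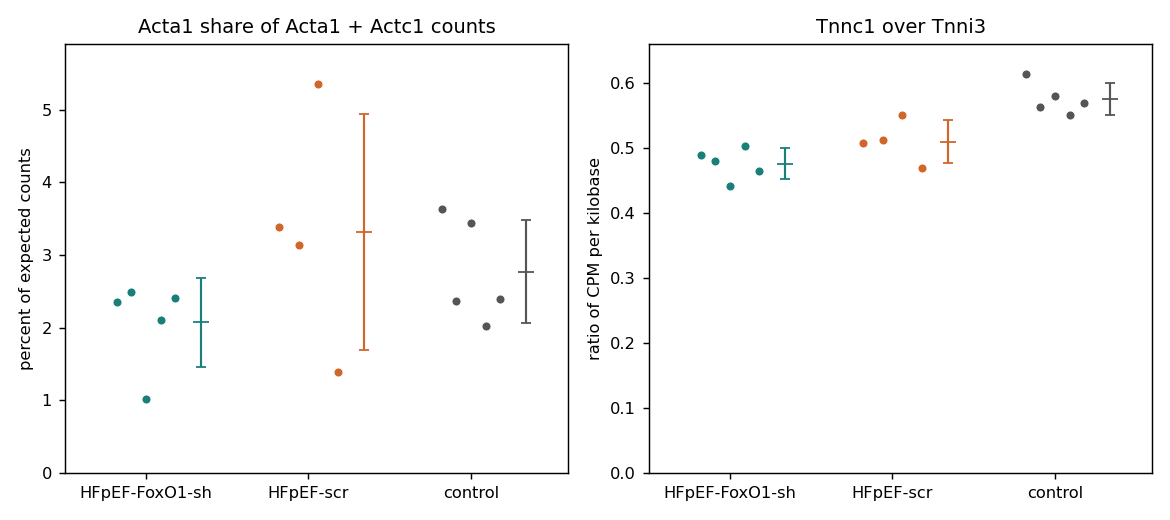
Ratios within each library (points) with the mean and SD of each group (bars), in HFpEF-FoxO1-sh, HFpEF-scr and control: the share of Acta1 in the expected counts of both alpha-actins in percent (left), and the level per kilobase of Tnnc1 over that of Tnni3 (right). The actin share overlaps between groups, and the troponin ratio is below that of each control library in both HFpEF groups, the closest being 0.5499 in HFpEF-scr 3 against 0.5501 in the lowest control.

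Tnnc1, on chromosome 14 at 31208312 to 31211729, plus strand, 6 exons, encodes troponin C, the subunit that binds calcium. It had 1896, 1885, 1740, 1868 and 1678 CPM in HFpEF-FoxO1-sh 1 to 5, 1697, 1747, 1826 and 1785 in HFpEF-scr 1 to 4, and 2295, 2123, 2216, 2066 and 2212 in control 1 to 5. Each library of both HFpEF groups was below each control library, and the HFpEF groups overlapped with each other. Tnnc1 fell by 0.31 ± 0.04 on the log2 scale in HFpEF-scr against control (adjusted p = 0.000700, edgeR), a change of -19.2% with a 95% interval from -24.3% to -13.8%. In HFpEF-FoxO1-sh against control it fell by 0.27 ± 0.04 (adjusted p = 0.000603), or -16.9%. Between the HFpEF groups it stood at 0.04 ± 0.04 (adjusted p = 0.663; 95% interval -3.62% to 9.68%). The fall against control was called in 13 of 13 other settings and 9 of 9 refits without 1 library for HFpEF-scr, and in 12 of 12 and 10 of 10 for HFpEF-FoxO1-sh. In bulk tissue, fewer heart muscle cells and less RNA per cell cannot be told apart. Summed over 25 genes of heart muscle outside the sarcomere, the libraries held 52870 to 55720 CPM in HFpEF-FoxO1-sh, 51720 to 53640 in HFpEF-scr and 52460 to 55420 in control. With libraries scaled by these genes Tnnc1 gave -0.29 in HFpEF-scr (adjusted p = 0.00333, edgeR) and -0.24 in HFpEF-FoxO1-sh (adjusted p = 0.00300, edgeR) against control. The part of cell composition in the fall was not tested. With the immediate early score as a covariate Tnnc1 gave -0.29 in HFpEF-scr (adjusted p = 0.00853) and -0.27 in HFpEF-FoxO1-sh (adjusted p = 0.00111) against control.

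Tnni3, on chromosome 7 at 4518305 to 4524229, minus strand, encodes the cardiac inhibitory troponin I, and 4.17% of its exon bases also belong to exons of Dnaaf3, so that reads there cannot be assigned with certainty. It had 4906, 4979, 4989, 4694 and 4576 CPM in HFpEF-FoxO1-sh 1 to 5, 4229, 4321, 4199 and 4809 in HFpEF-scr 1 to 4, and 4731, 4778, 4838, 4751 and 4918 in control 1 to 5. In HFpEF-scr, 3 libraries were below all others and HFpEF-scr 4 was inside the range of the rest. The fold changes were -0.13 ± 0.04 for HFpEF-scr against control (adjusted p = 0.0705, edgeR) and 0.14 ± 0.04 for HFpEF-FoxO1-sh against HFpEF-scr (adjusted p = 0.0754). Without HFpEF-scr 4 these became -0.18 (adjusted p = 0.0158) and 0.19 (adjusted p = 0.0113), both called, and DESeq2 called both with all libraries (adjusted p = 0.0360 and 0.0348), while a fit that includes the immediate early score gave an adjusted p of 0.194 and 0.171. Against control, HFpEF-FoxO1-sh gave 0.01 ± 0.04 (adjusted p = 0.928), with the sign turning to -0.02 when libraries were scaled by their totals. Relative to Tnni3 within each library, the level per kilobase of Tnnc1 was 0.475 ± 0.0238 in HFpEF-FoxO1-sh (SD, n = 5), 0.510 ± 0.0329 in HFpEF-scr (SD, n = 4) and 0.575 ± 0.0241 in control (SD, n = 5). The highest ratio was 0.503 in HFpEF-FoxO1-sh and 0.5499 in HFpEF-scr, and the lowest in control was 0.5501, so each HFpEF group lay below the controls without overlap, HFpEF-scr only in the last digit, and the HFpEF groups overlapped with each other.

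Tnnt2, on chromosome 1 at 135836354 to 135852260, plus strand, encodes the cardiac troponin T, which holds the complex on tropomyosin. It had 8915, 8888, 9352, 7256 and 8246 CPM in HFpEF-FoxO1-sh 1 to 5, 6543, 8143, 7485 and 8541 in HFpEF-scr 1 to 4, and 8827, 8959, 9086, 8780 and 8999 in control 1 to 5. The controls lay within a narrow band that each HFpEF-scr library was below, while HFpEF-FoxO1-sh reached above and below it. HFpEF-scr against control gave -0.22 ± 0.07 (adjusted p = 0.0778, edgeR), which was called without HFpEF-scr 4 (adjusted p = 0.0478) and by DESeq2 (adjusted p = 0.0449). It was -0.15 without HFpEF-scr 1 (adjusted p = 0.161) and -0.20 with the immediate early score as a covariate (adjusted p = 0.221). HFpEF-FoxO1-sh gave 0.15 ± 0.07 against HFpEF-scr (adjusted p = 0.260), which was 0.09 without HFpEF-scr 1, and -0.07 ± 0.07 against control (adjusted p = 0.582).

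Tpm1, on chromosome 9 at 67022590 to 67049406, minus strand, encodes alpha-tropomyosin, the coiled coil along the actin groove. It had 10315, 10318, 10284, 9945 and 9643 CPM in HFpEF-FoxO1-sh 1 to 5, 7632, 10109, 9742 and 10772 in HFpEF-scr 1 to 4, and 10367, 9883, 10358, 10700 and 10236 in control 1 to 5. HFpEF-scr 1 was the low library, and the other HFpEF-scr libraries lay around the control range. The fold changes were -0.11 ± 0.07 for HFpEF-scr against control (adjusted p = 0.374, edgeR), -0.02 without HFpEF-scr 1, and 0.08 ± 0.07 for HFpEF-FoxO1-sh against HFpEF-scr (adjusted p = 0.571), -0.01 without it. The value was -0.03 ± 0.07 for HFpEF-FoxO1-sh against control (adjusted p = 0.822).

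Actn2, on chromosome 13 at 12269426 to 12340760, minus strand, encodes the sarcomeric alpha-actinin of the Z-disc. It had 2645, 2715, 2551, 2563 and 2553 CPM in HFpEF-FoxO1-sh 1 to 5, 2429, 2473, 2597 and 2614 in HFpEF-scr 1 to 4, and 2707, 2663, 2732, 2698 and 2777 in control 1 to 5. HFpEF-scr was below control in each library, and HFpEF-FoxO1-sh overlapped with both. HFpEF-scr against control gave -0.10 ± 0.03 (adjusted p = 0.0739, edgeR), a small change of -6.90%, which was called by DESeq2 (adjusted p = 0.0190) and with libraries scaled by their totals (adjusted p = 0.0447). With the immediate early score as a covariate its adjusted p was 0.221, and without HFpEF-scr 1 it was 0.120. HFpEF-FoxO1-sh gave 0.04 ± 0.03 against HFpEF-scr (adjusted p = 0.517) and -0.06 ± 0.03 against control (adjusted p = 0.245).

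Ldb3, on chromosome 14 at 34526603 to 34588682, minus strand, 14 exons in its principal transcript, encodes a PDZ-LIM protein of the Z-disc known as Cypher or ZASP. It had 1252, 1332, 1244, 1285 and 1246 CPM in HFpEF-FoxO1-sh 1 to 5, 1159, 1292, 1291 and 1237 in HFpEF-scr 1 to 4, and 1363, 1349, 1381, 1392 and 1382 in control 1 to 5. As for Tnnc1, each library of both HFpEF groups was below each control library. Ldb3 fell by 0.14 ± 0.04 on the log2 scale in HFpEF-scr against control (adjusted p = 0.0320, edgeR), or -9.38%, and by 0.11 ± 0.04 in HFpEF-FoxO1-sh against control (adjusted p = 0.0481), or -7.42%. Between the HFpEF groups it stood at 0.03 ± 0.04 (adjusted p = 0.698; 95% interval -3.29% to 7.93%). Both calls sat near the threshold. In HFpEF-scr the call held in 3 of 9 refits without 1 library and was lost without HFpEF-scr 1 or 4 or control 2, 3, 4 or 5, at adjusted p values between 0.0501 and 0.0731. In HFpEF-FoxO1-sh it held in 1 of 10, the refit without HFpEF-FoxO1-sh 2, and the adjusted p of the others reached 0.106. Scaled by the heart muscle genes, the adjusted p was 0.0757 in HFpEF-scr and 0.161 in HFpEF-FoxO1-sh, and with the immediate early score as a covariate it was 0.0914 in HFpEF-scr and 0.0666 in HFpEF-FoxO1-sh.

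Tcap, on chromosome 11 at 98383811 to 98384953, plus strand, encodes telethonin. It had 2125, 2510, 1995, 2065 and 2160 CPM in HFpEF-FoxO1-sh 1 to 5, 1126, 1769, 1548 and 2066 in HFpEF-scr 1 to 4, and 1234.5, 1977, 2264, 2191 and 2279 in control 1 to 5. HFpEF-scr 1 and control 1 were low, and HFpEF-FoxO1-sh was the even group. HFpEF-FoxO1-sh against HFpEF-scr gave 0.42 ± 0.17 (adjusted p = 0.170, edgeR), with a 95% interval from 4.36% to 70.5%, HFpEF-scr against control -0.29 ± 0.17 (adjusted p = 0.313) and HFpEF-FoxO1-sh against control 0.13 ± 0.16 (adjusted p = 0.657), which was -0.005 without control 1. Without HFpEF-scr 1, the value was 0.28 for HFpEF-FoxO1-sh against HFpEF-scr (adjusted p = 0.379) and -0.15 for HFpEF-scr against control (adjusted p = 0.593). Without control 1, HFpEF-scr against control gave -0.42 instead (adjusted p = 0.0587), still not called.

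The low libraries of Tcap were also low in the clock index. The index ran from 3.89 to 4.40 in HFpEF-FoxO1-sh and from 1.49 to 3.58 in HFpEF-scr, and in control it was 0.95 in control 1 and 3.15 to 4.03 in the others. In HFpEF-scr the order was not the same for both measures, since HFpEF-scr 2 had the lowest index and HFpEF-scr 1 the lowest Tcap. With the index as a covariate, a setting added after the values were seen, Tcap gave 0.01 ± 0.16 between HFpEF-FoxO1-sh and HFpEF-scr (adjusted p = 0.994), and in HFpEF-scr against control -0.13 ± 0.13 (adjusted p = 0.603). The index did not overlap between HFpEF-FoxO1-sh and HFpEF-scr. The hairpin and the clock index therefore cannot be told apart in that comparison, for Tcap or for any other gene. Tnnc1 gave -0.32 ± 0.05 in HFpEF-scr (adjusted p = 0.00117) and -0.25 ± 0.05 in HFpEF-FoxO1-sh (adjusted p = 0.00707) against control in the same fit.

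**Figure D4:**
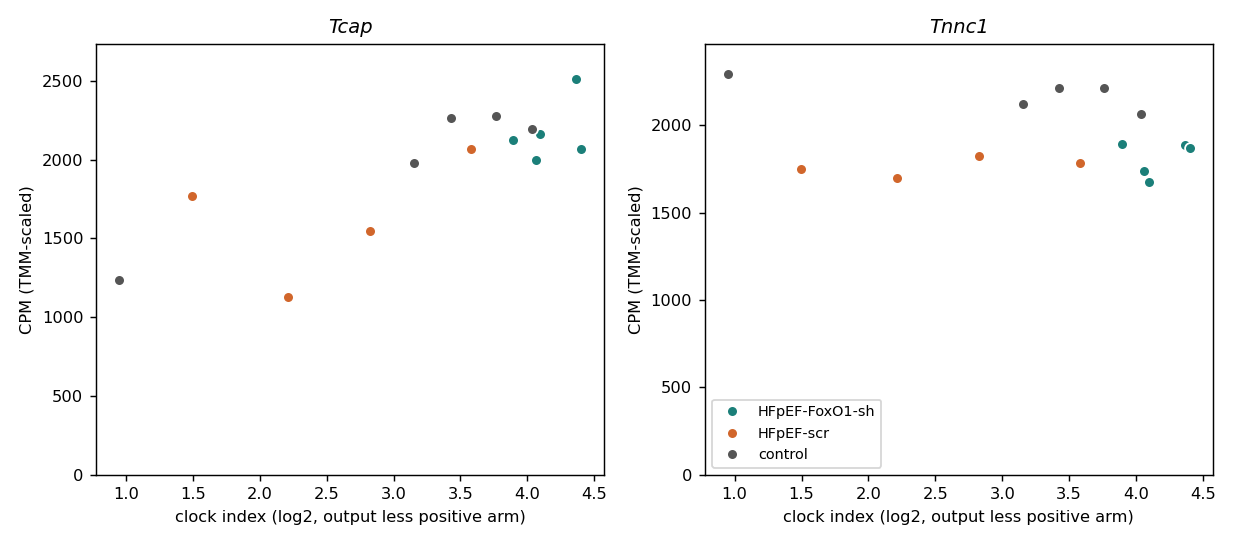
Level of Tcap (left) and Tnnc1 (right) in CPM against the clock index, in log2 units, with 1 point for each library of HFpEF-FoxO1-sh, HFpEF-scr and control. Tcap is lowest in libraries with an index under 3, control 1 among them, while Tnnc1 is highest in control 1, the library with the lowest index.

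Lmod2, on chromosome 6 at 24597762 to 24605414, plus strand, encodes cardiac leiomodin, which acts at the pointed end and sets thin filament length. It had 976, 1187, 937, 1033 and 1274 CPM in HFpEF-FoxO1-sh 1 to 5, 849, 1095, 1002 and 1122 in HFpEF-scr 1 to 4, and 769, 842, 1011, 1056 and 1236 in control 1 to 5. The groups overlapped over most of their ranges. The fold changes were 0.05 ± 0.13 for HFpEF-scr against control (adjusted p = 0.853, edgeR), 0.09 ± 0.13 for HFpEF-FoxO1-sh against HFpEF-scr (adjusted p = 0.751) and 0.14 ± 0.12 for HFpEF-FoxO1-sh against control (adjusted p = 0.495). Without HFpEF-scr 1, the first became 0.12 and that for HFpEF-FoxO1-sh against HFpEF-scr 0.013.

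Promoter sequences of RefSeq on GRCm38.p6, 250 bases before to 50 after an annotated start, were matched for 9 of the 10 genes, with 11 promoters. They were searched on both strands for 6 motifs bound by muscle and other factors, namely the CArG box of serum response factor and the MEF2 element, both by name, and 4 motifs by their letters. The M-CAT motif of TEAD factors was searched as CATTCC and the GATA motif of cardiac zinc finger factors as AGATAA. The TATA box of many core promoters was searched as TATAAA and a forkhead motif, of the family that FoxO1 belongs to, as GTAAACA. No 2 matches in these promoters overlapped. A CArG box was found in Actc1, Acta1 and Ldb3, 3 of the 9 genes, beside 1.63% of the 32851 promoters in the table. The M-CAT motif was found in Acta1, Tnnc1, Tnnt2 and Tpm1, 4 of 9, beside 14.7%. The TATA box was found in Actc1 and Acta1, beside 13.6%, and the GATA motif in Tnnt2, beside 11.2%. The MEF2 element and the forkhead motif matched in none of them within these windows, beside 0.557% and 3.65% of all promoters. The 4 promoters shown are those of both alpha-actins and of the 2 genes called lower against control, in the direction of transcription, with each match to a motif in capitals.
Actc1 promoter chr2:114052826-114053125, minus strand: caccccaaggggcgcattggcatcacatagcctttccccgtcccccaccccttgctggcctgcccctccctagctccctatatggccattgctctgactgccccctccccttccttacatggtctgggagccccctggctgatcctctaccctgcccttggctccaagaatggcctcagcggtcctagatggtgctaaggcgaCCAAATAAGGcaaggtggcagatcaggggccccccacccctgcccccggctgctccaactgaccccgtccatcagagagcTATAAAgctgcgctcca
Acta1 promoter chr8:123894726-123895025, minus strand: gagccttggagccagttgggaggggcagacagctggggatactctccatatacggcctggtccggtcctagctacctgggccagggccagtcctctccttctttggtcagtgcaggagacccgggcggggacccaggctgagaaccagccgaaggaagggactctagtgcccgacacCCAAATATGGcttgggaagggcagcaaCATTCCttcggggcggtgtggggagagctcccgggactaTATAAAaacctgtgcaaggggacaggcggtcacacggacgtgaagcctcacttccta
Tnnc1 promoter chr14:31208062-31208361, plus strand: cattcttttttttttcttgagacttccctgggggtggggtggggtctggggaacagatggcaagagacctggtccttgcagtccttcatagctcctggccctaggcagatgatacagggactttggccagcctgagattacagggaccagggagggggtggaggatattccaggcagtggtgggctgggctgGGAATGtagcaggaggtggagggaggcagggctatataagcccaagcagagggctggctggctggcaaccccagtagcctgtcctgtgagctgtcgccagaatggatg
Ldb3 promoter chr14:34588632-34588931, minus strand: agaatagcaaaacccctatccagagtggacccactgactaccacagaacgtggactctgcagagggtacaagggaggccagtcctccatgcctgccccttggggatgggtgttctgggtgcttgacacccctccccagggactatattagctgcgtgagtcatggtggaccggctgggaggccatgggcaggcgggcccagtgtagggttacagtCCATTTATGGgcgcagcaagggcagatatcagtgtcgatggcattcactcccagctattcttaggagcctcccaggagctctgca

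In the Actc1 promoter the CArG box begins at -47 and the TATA box at 34, counted from the annotated start. Where transcription starts in these hearts was not tested, so the positions hold for the annotation alone. In the Acta1 promoter the CArG box begins at -73, the M-CAT motif at -46 and the TATA box at -7. The Tnnc1 window holds no CArG box and the M-CAT motif on its other strand at -58, and that of Ldb3 a CArG box at -35. Only the exact letters TATAAA were searched, so the letters tatataag in the Tnnc1 window were not counted. Tnnc1 and Ldb3, the genes called lower in both HFpEF groups against control, thus had no match in common among the 6 motifs, and a match is a description of letters and not of a bound site.

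Across the 14 libraries, which span the 3 groups, Tnnc1 and Ldb3 had a Pearson correlation of log2 CPM of 0.85, Tnnc1 and Actn2 of 0.83 and Actn2 and Ldb3 of 0.83, given as descriptions since these libraries share their group differences. Tnni3 and Tnnt2 stood at 0.81 and Tcap and Lmod2 at 0.71, while Acta1 and Tnni3 stood at -0.56. Among 10403 genes the most like the mean of the 9 genes other than Acta1 were Myl2 (0.90), the ventricular regulatory myosin light chain, Hopx (0.90), a homeodomain protein without DNA binding, Got2 (0.90), Aqp1 (0.88) and Fam132a (0.88). The genes most like Acta1 were others: Mapt (0.84), which encodes the microtubule protein tau, Rassf3 (0.82), Ctnnb1 (0.82), the gene of beta-catenin, Dtx3l (0.81) and Akap17b (0.81).

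Other genes of the thin filament, 23 of 27 tested, moved in both directions in HFpEF-scr against control. There 2 were called higher and 3 lower, beside 3.66% and 3.70% of all genes. Acta2, the smooth muscle actin, rose by 0.63 ± 0.15 (adjusted p = 0.0218, edgeR) and Tpm2, beta-tropomyosin, by 0.37 ± 0.09 (adjusted p = 0.0234). Of 14 pericyte and smooth muscle markers (median 0.20) 3 were called higher, but Acta2 is on that list and is itself among them. Beside these, 3 of 16 fibroblast markers (median 0.155) and 3 of 15 endothelial markers (median 0.015) were called higher. None of the 3 lists had a call lower, and the part of such cells in the change was not tested. Tnnt1, the slow skeletal troponin T, fell by 0.80 ± 0.13 to 10.7 CPM in HFpEF-scr, against 18.5 CPM in control (adjusted p = 0.00171), and Fhod3, a formin that builds cardiac actin filaments, by 0.26 ± 0.05 (adjusted p = 0.00458). In HFpEF-FoxO1-sh against control, 6.28% of all genes were called lower and 6.68% higher, and of the 23 here 3 fell and none rose. These were Tnnt1 by 0.71 ± 0.12, Cfl1, the non-muscle cofilin, by 0.33 ± 0.07 and Tpm4 by 0.32 ± 0.08. In the same comparison 10 of 14 macrophage markers were called lower and none higher (median -0.56), with summed levels of 170.0 to 217 CPM in HFpEF-FoxO1-sh and 253 to 340 CPM in control, and 4 of 16 fibroblast markers were called lower (median -0.02). Their part in these falls was not tested. The calls of Tnnt1, Fhod3, Cfl1 and Tpm4 against control held in each refit without 1 library. Acta2 and Tpm2 held in 6 of 9 each: Acta2 was not called without HFpEF-scr 3, HFpEF-scr 4 or control 3 (highest adjusted p = 0.0701), nor Tpm2 without HFpEF-scr 1, HFpEF-scr 3 or control 3 (highest adjusted p = 0.0686). With the clock index as a covariate, Tpm4 in HFpEF-FoxO1-sh against control was not called (adjusted p = 0.0943, edgeR), while Tnnt1 and Cfl1 were. The list's median was 0.07 in HFpEF-scr and -0.04 in HFpEF-FoxO1-sh against control, beside 0.002 and -0.003 for all genes tested.

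In HFpEF-FoxO1-sh against HFpEF-scr, 2.26% of all genes were called lower and 1.32% higher, and of the 23 here 4 fell and none rose. These were Tpm4, a tropomyosin of the non-muscle cytoskeleton, by 0.51 ± 0.08 (adjusted p = 0.00437, edgeR), Tmod3, the broadly expressed tropomodulin, by 0.27 ± 0.06, Cfl1 by 0.30 ± 0.07 and Cap1 by 0.20 ± 0.05. They are genes of actin in many cell types. Of 14 macrophage markers, 4 fell as well and none rose, with summed levels of 170.0 to 217 CPM in HFpEF-FoxO1-sh and 231 to 294 CPM in HFpEF-scr. Of 16 fibroblast markers 4 fell, with 2194 to 2758 CPM in HFpEF-FoxO1-sh and 2485 to 3074 CPM in HFpEF-scr. Their part in the falls of the actin genes was not tested. Tpm4 held in 9 of 9 refits without 1 library, but Cfl1 held in 5, Tmod3 in 4 and Cap1 in 2. Without HFpEF-scr 1 the adjusted p was 0.0823 for Cfl1 and 0.0760 for both Tmod3 and Cap1, and with the clock index as a covariate none of the 4 was called, Tpm4 then giving -0.43 (adjusted p = 0.161). The list's median was -0.09, beside 0.004.

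Other Z-disc genes were 30 of 32 tested. In HFpEF-scr against control 1 was called, beside 7.37% of all genes. It was Myoz2, a calsarcin that binds calcineurin, which fell by 0.27 ± 0.06 (adjusted p = 0.0152, edgeR). In HFpEF-FoxO1-sh against control 5 fell and 1 rose, beside 6.28% and 6.68% of all genes. Pdlim1, a PDZ-LIM protein that binds alpha-actinin, fell by 0.54 ± 0.06 (adjusted p = 4.47e-05), to 46.2 CPM in HFpEF-FoxO1-sh, against 67.3 CPM in control. Myoz2 fell by 0.26 ± 0.06, Synpo2l by 0.33 ± 0.08 and Csrp3, the muscle LIM protein, by 0.19 ± 0.05. In HFpEF-FoxO1-sh against HFpEF-scr 4 fell and none rose, beside 2.26% and 1.32% of all genes. Among the 4 were Pdlim1 by 0.42 ± 0.07 (adjusted p = 0.00420, edgeR), Actn4, a non-muscle alpha-actinin, by 0.26 ± 0.05 and Flnc, the filamin of muscle, by 0.25 ± 0.06. Pdlim1, Actn4, Myoz2, Synpo2l and Csrp3 held in each refit without 1 library in these comparisons. Flnc against HFpEF-scr held in 4 of 9, and was not called without HFpEF-scr 1 or 3 or HFpEF-FoxO1-sh 1, 3 or 4 (highest adjusted p = 0.0654). With the clock index as a covariate, Pdlim1 in HFpEF-FoxO1-sh against HFpEF-scr gave -0.40 (adjusted p = 0.126, edgeR), and Actn4 and Flnc were not called either. Against control, HFpEF-FoxO1-sh then had no call for Myoz2 (adjusted p = 0.0569) or Csrp3 (adjusted p = 0.0665), while Pdlim1 and Synpo2l were called. Myoz2 in HFpEF-scr against control was not called without HFpEF-scr 1 and 2 (adjusted p = 0.0543). The list's median was 0.01 in HFpEF-scr against control, -0.10 in HFpEF-FoxO1-sh against HFpEF-scr and -0.06 in HFpEF-FoxO1-sh against control. Beside these falls, macrophage markers were called lower in 10 of 14 against control and 4 of 14 against HFpEF-scr, and fibroblast markers in 4 of 16 in each, and their part was not tested. Within the alpha-actinins, Actn4 was called there and Actn2 was not, and the difference between them was not tested.

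Of all genes tested, 3.70% were called lower in HFpEF-scr and 6.28% in HFpEF-FoxO1-sh against control. Of thick filament and M-band genes, 18 of 19 tested, 4 fell in each HFpEF group against control and none rose. In HFpEF-scr these were Myl3, the ventricular essential light chain, by 0.33 ± 0.04 (adjusted p = 0.000186, edgeR), Mybpc3, the cardiac myosin binding protein C, by 0.37 ± 0.05 (adjusted p = 0.000710), Myl2 by 0.19 ± 0.05 and Myh6, the alpha-myosin, by 0.18 ± 0.05. In HFpEF-FoxO1-sh they were Mybpc3 by 0.44 ± 0.05, Myl3 by 0.25 ± 0.04, Myom2 by 0.36 ± 0.07 and Trim55 by 0.21 ± 0.06. HFpEF-FoxO1-sh against HFpEF-scr had 1 call, beside 3.58% of all genes. It was Myh7, which fell by 1.57 ± 0.39 (adjusted p = 0.0380, edgeR) to 519 CPM in HFpEF-FoxO1-sh, against 1535 CPM in HFpEF-scr, where HFpEF-scr 1 had 2987 CPM. That call held in 2 of 9 refits, those without HFpEF-scr 3 or 4, and without HFpEF-scr 1 the value was -1.02 (adjusted p = 0.135). Myl3, Mybpc3 and Myom2 held in each refit against control, while Myl2 and Myh6 held in 3 of 9 each and Trim55 in 4 of 10. Myl2 and Myh6 were both lost without HFpEF-scr 1, 2 or 3 or control 3, 4 or 5 (highest adjusted p = 0.0859 for Myl2 and 0.1 for Myh6), and Trim55 without HFpEF-FoxO1-sh 1, 4 or 5 or control 1, 2 or 5 (highest adjusted p = 0.0704). With the clock index as a covariate, Myl2 and Myh6 in HFpEF-scr (adjusted p = 0.0567 and 0.0629, edgeR) and Trim55 in HFpEF-FoxO1-sh (adjusted p = 0.129) were not called against control. Myl3, Mybpc3 and Myom2 were called with it. The medians of the list were -0.07, 0.04 and -0.04 in HFpEF-scr against control, HFpEF-FoxO1-sh against HFpEF-scr and HFpEF-FoxO1-sh against control.

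**Figure D5:**
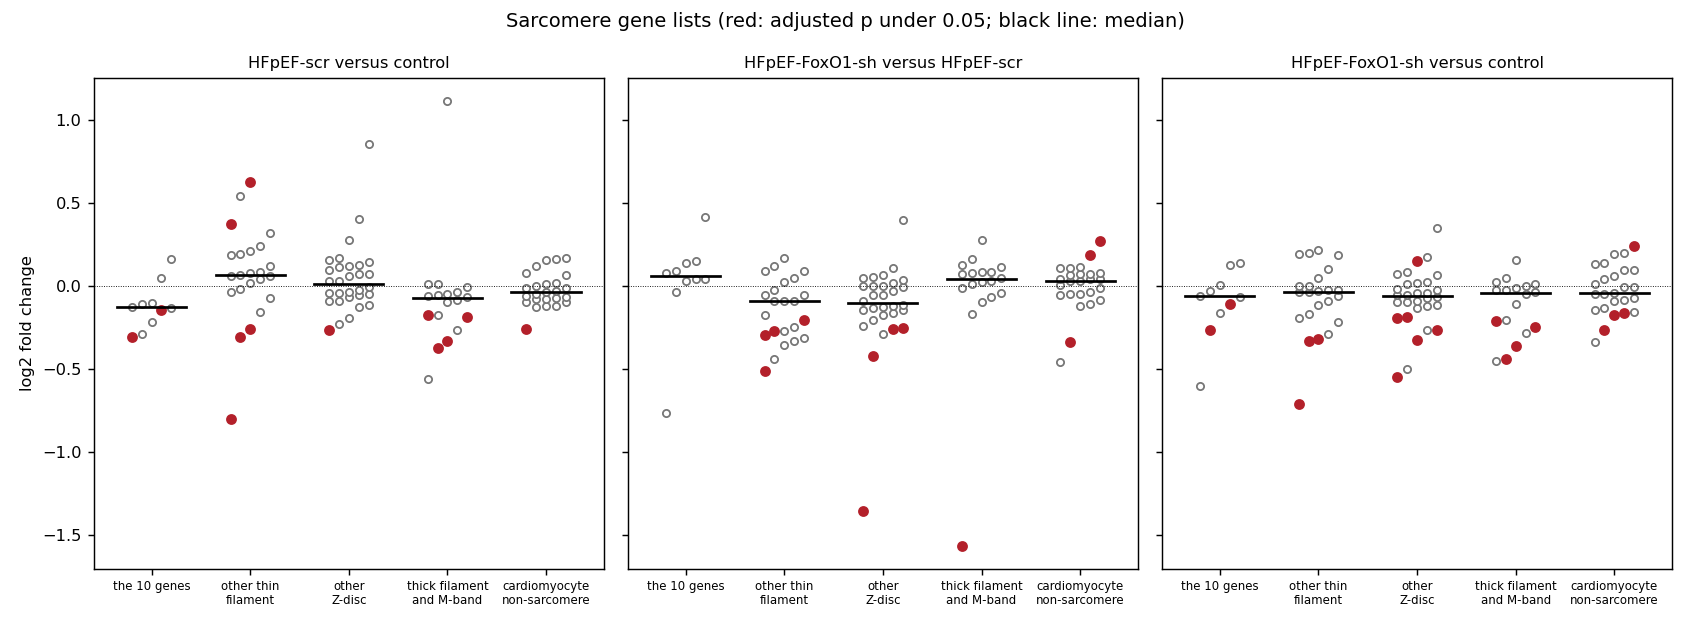
Log2 fold changes of the 10 genes and of the other genes tested in 4 lists (points, red where the adjusted p was under 0.05) with the median of each list (black line), in the 3 comparisons with the group named first on top. Red points of the 10 genes and of the thick filament list lie below 0 in both comparisons with control, and those of the other thin filament and Z-disc lists lie below 0 in HFpEF-FoxO1-sh against HFpEF-scr.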

How the data were processed

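Messenger RNA of left ventricles was selected by its poly(A) tail and made into libraries with a kit of Swift Biosciences, per the labels' protocols. The deposited table holds expected counts per gene, made by the authors, and it is for mouse genome mm10 with RSEM 1.2.15 and Bowtie2 2.1.0, per the submitters' processing notes. The gene annotation and filters are not given in the sources used here. Columns were matched to samples by library number.

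Expected counts were rounded and tested in edgeR 4.0.16 (R 4.3.3, limma 3.58.1) on the 13588 genes that filterByExpr kept, with TMM scaling and a quasi-likelihood fit of all 14 libraries, 1 coefficient per group and 11 residual degrees of freedom. The 3 contrasts used two-sided F-tests with Benjamini-Hochberg adjustment over all genes tested. SEs were derived from F statistics, and intervals are 95% intervals of the fit. The common biological coefficient of variation was 0.0999. Levels are CPM after TMM, and levels per kilobase use the principal transcript of GENCODE vM21. No pair of libraries within a group was a duplicate. The fit was tested on simulated data.

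The genes and lists were chosen with earlier results of these data known. Up to 4 genes of each other list were named by the smallest p among those called whose mean reached 5 CPM, and the 5 most correlated genes for each likeness. DESeq2 1.42.0 and limma voom, other scalings and filters, covariates, 2-group fits and leaving out libraries were alternatives. The clock index was added after the values were seen. Counts of Gm47692 and Dnaaf3 could share reads with the genes named beside them. Figures used matplotlib 3.10.9 under Python 3.11.15.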

Additional observations from a re-analysis of the deposited data

Results flagged for a closer look

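Of 42 groups of 4 or 5 libraries checked for a library far from the rest, 3 had one, where chance gives about 1 in 20. Acta1 made up 1.012% of the alpha-actin counts in HFpEF-FoxO1-sh 3, against 2.1% to 2.491% in the other HFpEF-FoxO1-sh libraries. The level per kilobase of Tnnt2 over that of Tnni3 was 1.175 in HFpEF-FoxO1-sh 4, against 1.357 to 1.425 in the rest of that group, and HFpEF-scr 1 had a like ratio of 1.176. Tcap had 1234.5 CPM in control 1, against 1977 to 2279 CPM in the other controls. Control 1 was also the library with the lowest clock index, 0.95.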

How the results depend on the processing

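Tnnc1 was called lower against control under every alternative run, while Ldb3 was not. Genes called in HFpEF-scr against control, 1001 of them (498 higher, 503 lower), were 504 in a fit of those groups alone, 417 with the immediate early score as a covariate, 560 without HFpEF-scr 1 and 2, and 683 higher and 324 lower when scaled by heart muscle genes. For HFpEF-FoxO1-sh against HFpEF-scr, 486 (179 and 307), they were 876 by DESeq2, 262 with the immediate early score, 15 with the clock index, 54 without HFpEF-scr 1 and 2, and 114 and 400 by library totals. For HFpEF-FoxO1-sh against control, 1760 (907 and 853), they were 2080 in a fit of those groups alone, 827 with the clock index, 675 and 1012 by library totals and 1227 and 606 by heart muscle genes. Of the 10 genes, 2 were called in HFpEF-scr against control, and this was 4 by library totals, 5 by DESeq2 and 1 by heart muscle genes, without a filter, in the 2-group fit, with either covariate or without HFpEF-scr 1 and 2. HFpEF-FoxO1-sh against HFpEF-scr had 0, and 1 by DESeq2. HFpEF-FoxO1-sh against control had 2, and this was 3 in the 2-group fit and 1 by heart muscle genes, without a filter or with either covariate. The causes were not tested.

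Same-numbered libraries did not deviate together (13 pairs, correlations from -0.194 to 0.111, with 1 above 0.1). No pairing by number was seen, although a weak one could go unseen in such correlations. With the replicate block, 770, 291 and 1488 genes were called in the order above, and 1, 0 and 1 of the 10. Of the genes named from the other lists, Myl2 and Myh6 in HFpEF-scr against control, Tmod3, Cap1, Cfl1 and Myh7 in HFpEF-FoxO1-sh against HFpEF-scr and Trim55 in HFpEF-FoxO1-sh against control were not called with it, and no named gene of these lists changed sign under any setting.

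Leaving out 1 library gave 537 to 1106 genes, with 1 to 3 of the 10, in HFpEF-scr against control, 162 to 668 with 0 to 1 in HFpEF-FoxO1-sh against HFpEF-scr, and 1228 to 1683 with 1 to 2 in HFpEF-FoxO1-sh against control. The lowest of these were without control 3, HFpEF-FoxO1-sh 1 and control 2. Some small fold changes changed sign. In HFpEF-scr against control, Lmod2 was -0.105 with the immediate early score and ran from -0.027 to 0.146 without 1 library, and Acta1 from -0.29 to 0.41. In HFpEF-FoxO1-sh against HFpEF-scr, Tpm1 was -0.021 without HFpEF-scr 1 and 2 and ran from -0.013 to 0.142, Actc1 from -0.1 to 0.021, Ldb3 from -0.0 to 0.051, and Lmod2 was -0.15 with the clock index. In HFpEF-FoxO1-sh against control, Tnni3 was -0.02 both by library totals (-0.019) and with the clock index, and ran from -0.004 to 0.026. Tcap was -0.12 with the clock index and ran from -0.005 to 0.18, and Lmod2 was -0.008 with it. None of these was called. Depth limits these results little, since each of the 10 genes had at least 1114 counts in every library.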
